A study of Mus musculus with 5 samples.

Results

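Dlk1, Dll1 and Notch3 are 3 genes of the Notch signalling system or its fringe, followed here through early liver and pancreas formation in C57BL/6J mouse embryos. They were taken by their gene names from a table of 12375 named loci, in which each of the 3 has 1 locus, so 3 of 3 were found. The series holds 5 libraries of polyadenylated RNA, 1 per tissue: the liver and both the ventral and the dorsal pancreas at E10.5 (E for embryonic day), and 2 libraries at E8.5, foregut and medial foregut. The labels name no mutation, transgene or treatment in any library, and neither the number of embryos pooled nor the way the tissue was isolated is given in the sources used here. The purpose, as the series title puts it, concerns what separates a pancreatic from a hepatic fate.

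Notch signalling passes between touching cells. A ligand of the Delta or Jagged family on one cell binds a Notch receptor on its neighbour, the receptor is cut, and its inner part enters the nucleus, where it joins the DNA-binding protein Rbpj and switches on repressor genes of the Hes and Hey families. Dll1 encodes a Delta ligand that is known in the embryonic pancreas for restraining early endocrine differentiation, and Notch3 encodes a receptor known best from vascular mural cells. Dlk1 encodes a membrane protein with Delta-like EGF repeats that lacks the domain by which Delta and Jagged ligands bind Notch, so it is counted as an atypical ligand; it is an imprinted gene, read from the paternal copy, and a known surface marker of hepatoblasts, the progenitor cells of the fetal liver.

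Levels are given in FPKM, fragments per kilobase of transcript and per 1000000 mapped fragments, so that genes of different length can be set side by side. With 1 library per tissue there is no replicate error, no test was possible, and the values describe these libraries. Differences are on the log2(FPKM + 1) scale, and a difference is called higher or lower when it is at least 2 in size, which is 4 times in FPKM + 1, and the higher library reaches 5 FPKM. Many comparisons use the same library, so a chance deviation in it enters each of them. Summed FPKM lay between 437581 and 506529 over the 5 libraries, and depth in reads is unknown. Tissue labels were met by their markers where lists were at hand, as given below for hepatoblast and pancreatic genes, and markers of another tissue were present too: 6 of 7 listed cardiomyocyte genes were found and summed to 471 FPKM in the liver, 17.0 in the ventral pancreas and 21.01 in the dorsal pancreas, against 4487 in foregut and 7961 in medial foregut.

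The 3 genes showed 2 patterns. Dlk1 stood far higher in all 3 E10.5 libraries than in either E8.5 library, and highest in liver. Dll1 and Notch3 were lowest in liver and highest in the 2 pancreatic libraries, with the E8.5 libraries between them. Among 8295 named loci with a mean of at least 5 FPKM, the median gene had a range of 0.67 over the 5 libraries on the log2(FPKM + 1) scale, while Dlk1 had a range of 5.35, Dll1 of 2.60 and Notch3 of 2.41. These ranges were larger than those of 98.8%, 92.5% and 91.5% of these loci, in the order given.

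**Figure D1:**
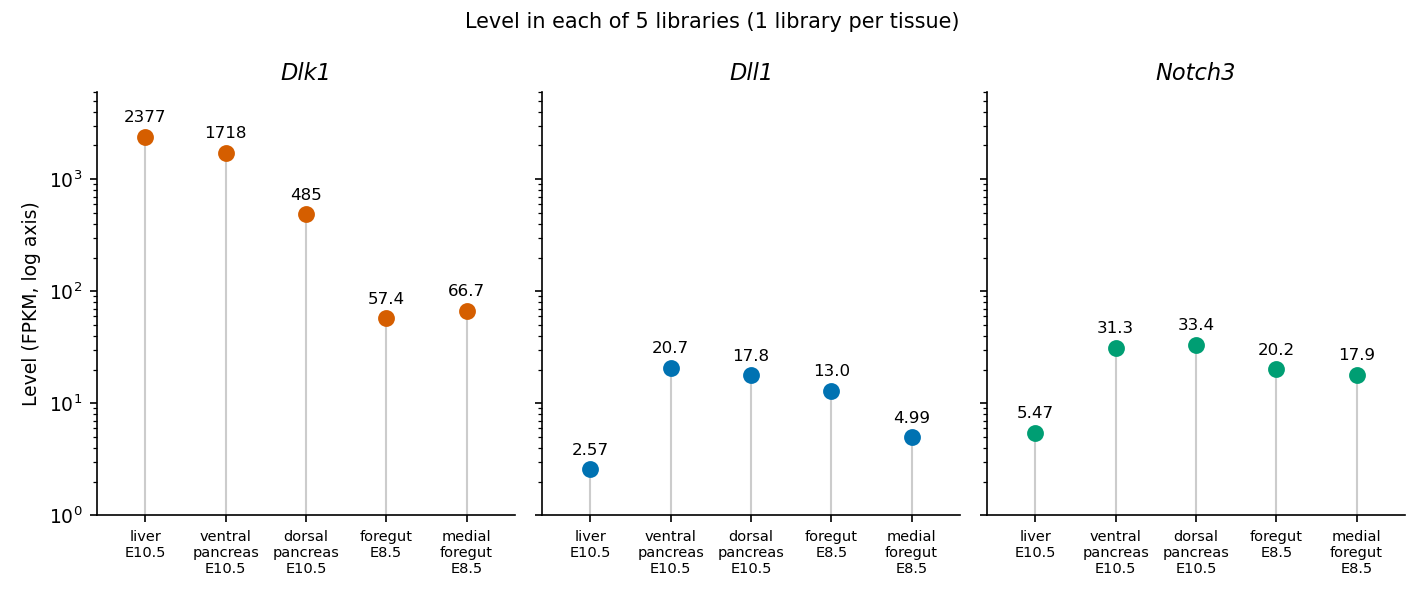
FPKM on a log axis for Dlk1, Dll1 and Notch3 in each of the 5 libraries, with E10.5 tissues left of E8.5 tissues; each point is 1 library and there is no error bar because there is no replicate. Dlk1 runs from 57.4 to 2377 FPKM, while Dll1 and Notch3 have their lowest points in liver, at 2.57 and 5.47 FPKM.

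Dlk1, the atypical ligand, lies on chromosome 12 from 110690142 to 110701540 on the plus strand (mm9), with no other locus of the table in that interval. It stood at 2377 FPKM in the liver, 1718 in the ventral pancreas and 485 in the dorsal pancreas at E10.5, against 57.4 in foregut and 66.7 in medial foregut at E8.5. The lowest E10.5 level, 485 FPKM, lay above the higher E8.5 level, 66.7 FPKM. The share of named loci whose E10.5 and E8.5 libraries separate in this way was not counted. Among the named loci Dlk1 had rank 5 in liver, rank 6 in the ventral pancreas and rank 46 in the dorsal pancreas, against rank 1163 in foregut and rank 996 in medial foregut. Its transcripts made up 0.473% of the summed FPKM in the liver, 0.363% in the ventral pancreas and 0.111% in the dorsal pancreas, against 0.0126% in foregut and 0.0132% in medial foregut. In such bulk tissue a larger share of cells with the gene and more RNA per cell cannot be told apart.

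Against the earlier stage, Dlk1 was called higher in every E10.5 library. Liver exceeded foregut by 5.35 and medial foregut by 5.13 on the log2(FPKM + 1) scale, a level 41.4 and 35.6 times as high. Relative to the median over all named loci, which lay between -0.09 and 0.12 in the 6 comparisons of an E10.5 with an E8.5 library and was moved by rescaling by at most 0.20, Dlk1 was higher by 2.74 to 5.44. In liver against foregut 2.49% of named loci were called higher and 2.89% lower, and against medial foregut 2.51% higher and 3.02% lower; only 28 of the 12375 loci lay as far above foregut as Dlk1 or further. Ventral pancreas exceeded foregut by 4.88, where 2.29% of loci were called higher and 1.9% lower, and medial foregut by 4.67, where 2.4% were higher and 2.26% lower. Dorsal pancreas, the lowest of the E10.5 libraries, still exceeded foregut by 3.06, where 1.71% were called higher and 1.41% lower, and medial foregut by 2.84, where 1.78% were higher and 1.86% lower. With each library rescaled to the same summed FPKM, the calls of dorsal pancreas against medial foregut were 61.9% on the higher side in place of 48.9%. The 6 calls of Dlk1 share the same 2 E8.5 libraries and are not independent of each other.

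Among the E10.5 tissues Dlk1 was graded, with liver first, ventral pancreas next and dorsal pancreas last. Liver exceeded dorsal pancreas by 2.29, or 4.90 times in FPKM, and was called higher; 2.12% of named loci were called higher and 3.35% lower in that comparison. With equal summed FPKM 28.3% of those calls were on the higher side in place of 38.8%. Liver exceeded ventral pancreas by 0.47, which is 1.38 times in FPKM and was not called. Ventral exceeded dorsal pancreas by 1.82, or 3.54 times, just short of the size rule; only 157 named loci, 1.27%, lay as far on the ventral side or further. Without replicates, whether neighbours in this order differ beyond sampling error could not be tested, and the 2 E8.5 libraries were closest, with foregut at 0.21 below medial foregut.

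Markers of hepatoblasts followed the same order in the E10.5 libraries, but fell far more steeply from liver to ventral pancreas than Dlk1, which was 1.38 times as high in liver. The 7 of 8 listed hepatoblast markers found in the table summed to 4381 FPKM in the liver, 433 in the ventral pancreas and 63.4 in the dorsal pancreas, against 34.5 in foregut and 24.4 in medial foregut, and all 7 were higher in liver than in the ventral pancreas and in ventral than in the dorsal pancreas. None was listed at 0 in any library. The most abundant were the transferrin gene Trf, at 1244 FPKM in the liver, 115 in the ventral pancreas and 27.2 in the dorsal pancreas, and the albumin gene Alb, at 1051, 97.0 and 1.497 FPKM in the same libraries. All 12 of 12 mesenchyme markers were found. They summed to 128 FPKM in the liver, 92.5 in the ventral pancreas and 285 in the dorsal pancreas. In foregut they summed to 115 FPKM and in medial foregut to 173. As a sum they did not run in the order of Dlk1, but single members varied. Of the 12 markers 7 were higher in liver than in the ventral pancreas and 5 higher than in the dorsal pancreas. Only 2 were higher in ventral than in dorsal pancreas. Mesothelium and septum transversum markers, 6 of 7 found, had the order of Dlk1 at E10.5 as a sum. They summed to 67.6 FPKM in the liver, 37.5 in the ventral pancreas and 30.4 in the dorsal pancreas, against 59.3 in foregut and 92.2 in medial foregut. Of these 6 markers, 5 were higher in liver than in the ventral pancreas, and 3 were higher in ventral than in dorsal pancreas. The part of any of these cell types in the Dlk1 levels was not tested.

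Dlk1 opens an imprinted domain. Its non-coding transcripts, such as the long RNAs Meg3 and Rian and the microRNA host Mirg, are read from the maternal copy. Within 500000 bp downstream of the Dlk1 start the table has 8 named loci including Dlk1, 7 of them with a mean of at least 1 FPKM. The locus that joins Meg3 with Mir337 and Mir493 stood at 377 FPKM in the liver, 585 in the ventral pancreas and 255 in the dorsal pancreas, against 110 in foregut and 117 in medial foregut. Rian stood at 217, 272 and 105 FPKM in the liver, ventral and dorsal pancreas, against 56.8 in foregut and 63.7 in medial foregut. Both were thus higher at E10.5 than at E8.5, as Dlk1 was, but they peaked in the ventral pancreas and spanned a narrower range. Dlk1 stood at 6.31 times the Meg3 locus in liver, 2.94 times in the ventral pancreas and 1.91 times in the dorsal pancreas, against 0.522 times in foregut and 0.572 times in medial foregut. The joined Mir453 and Mirg locus stood at 47.6 FPKM in the liver, 59.2 in the ventral pancreas and 21.9 in the dorsal pancreas, against 15.4 in foregut and 21.8 in medial foregut.

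**Figure D2:**
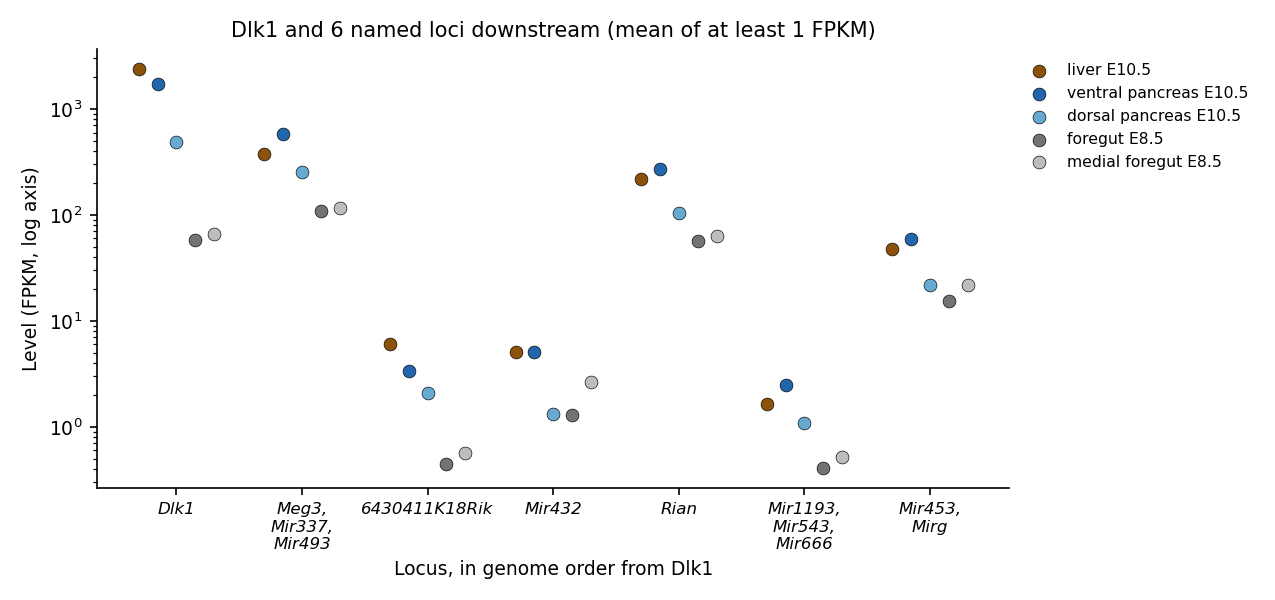
FPKM on a log axis for Dlk1 and the 6 further named loci with a mean of at least 1 FPKM within 500000 bp downstream, in genome order, 1 point per library. Dlk1 is highest in liver at 2377 FPKM, while the Meg3 locus and Rian are highest in the ventral pancreas at 585 and 272 FPKM.

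Other imprinted growth genes did not share the Dlk1 pattern as a list. Of 25 listed genes 18 were found, all with a mean of at least 1 FPKM, and the list includes Dlk1. In liver against dorsal pancreas Dlk1 and Asb4 were called higher and Mest, Ndn and Nnat lower, where 2.12% of named loci were called higher and 3.35% lower, with a list median of 0.26 beside -0.16 over all named loci. Asb4, at 2.10, and Ndn, at -2.01, lay near the limit. The Ndn call ended with a pseudocount of 5 FPKM and with median-ratio rescaling. The Asb4 call ended with that pseudocount and with equal summed FPKM. In liver against ventral pancreas 0 of 18 were called in either direction, beside 1.24% of named loci higher and 2.76% lower. In ventral against dorsal pancreas Mest alone was called, lower, beside 0.913% higher and 0.768% lower. Against the E8.5 libraries Dlk1 was called higher in all 3 E10.5 tissues, and Rian was called higher in the ventral pancreas, by 2.24 against foregut and 2.08 against medial foregut. Rian lay near the limit: in liver against foregut it was at 1.91 and not called, and with median-ratio rescaling it was called there at 2.02 and no longer called in the ventral pancreas against medial foregut, at 1.94. Nnat was called lower in liver than in foregut, a call that median-ratio rescaling and a pseudocount of 5 FPKM ended. Mest and Ndn were called lower in liver than in medial foregut, and that pseudocount ended the Ndn call. With median-ratio rescaling Cdkn1c was called lower in the dorsal pancreas than in medial foregut, at -2.11. H19, a non-coding RNA, and Igf2, a growth factor gene, were the 2 most abundant other members: H19 stood at 3808 FPKM in the liver, 2760 in the ventral pancreas and 2068 in the dorsal pancreas, against 1499 in foregut and 2492 in medial foregut. Igf2 stood at 1154, 876 and 652 FPKM in the same 3 E10.5 libraries, against 448 in foregut and 759 in medial foregut. Mest, a hydrolase-like gene whose locus is longer than the annotated gene, differed the other way, at 148 FPKM in the liver, 233 in the ventral pancreas and 1010 in the dorsal pancreas, against 493 in foregut and 704 in medial foregut. Asb4 stood at 85.6 FPKM in the liver, 54.0 in the ventral pancreas and 19.2 in the dorsal pancreas, and Ndn at 19.1, 32.1 and 80.3 FPKM in these libraries. Nnat, at a locus longer than the annotated gene, stood at 32.8 FPKM in the liver, 107 in the ventral pancreas and 189 in the dorsal pancreas.

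The genes most like Dlk1 were sought among 7687 loci with a single name and a mean of at least 5 FPKM, by the root mean square difference between log2(FPKM + 1) profiles over the 5 libraries after each was centred on its mean. The 6 nearest were Gjb1, which encodes a gap junction protein of the connexin family, the aldo-keto reductase gene Akr1c19, Ndrg1, the glucose transporter gene Slc2a2, the vitronectin gene Vtn and Serpinf1, at differences of 0.31, 0.36, 0.43, 0.49, 0.49 and 0.52. Gjb1 stood at 44.4 FPKM in the liver, 18.9 in the ventral pancreas and 7.34 in the dorsal pancreas, against 0.259 in foregut and 0.0463 in medial foregut. Slc2a2 had 20.6 FPKM in liver and 39.3 in the ventral pancreas, so that its highest library was not liver. Akr1c19 belongs to a family of similar genes, so its reads may be shared with its relatives.

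Dll1, the Delta ligand, lies on chromosome 17 from 15504322 to 15514283 on the minus strand (mm9). It stood at 2.57 FPKM in the liver, 20.7 in the ventral pancreas and 17.8 in the dorsal pancreas at E10.5, against 13.0 in foregut and 4.99 in medial foregut at E8.5. Liver was the lowest library and the pancreatic buds were the highest. Notch3, the receptor gene, lies on chromosome 17 from 32257544 to 32303819 on the minus strand (mm9). It stood at 5.47 FPKM in the liver, 31.3 in the ventral pancreas and 33.4 in the dorsal pancreas, against 20.2 in foregut and 17.9 in medial foregut. Liver was again lowest and the pancreatic buds highest. By rank, Dll1 exceeded 28.2% of named loci in liver but 69.2% in the ventral and 65.4% in the dorsal pancreas, against 58.8% in foregut and 36.4% in medial foregut. Notch3 exceeded 40.4% of named loci in liver, 79.9% in the ventral pancreas and 81.7% in the dorsal pancreas, against 70.4% in foregut and 67.2% in medial foregut.

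Both genes were called lower in liver than in each pancreatic library. Dll1 was lower by 2.60 on the log2(FPKM + 1) scale than in the ventral pancreas, where FPKM was 8.05 times as high, and by 2.40 than in the dorsal pancreas, where it was 6.95 times as high. Notch3 was lower by 2.32 and by 2.41, with 5.72 and 6.11 times as high a level in the ventral and dorsal pancreas. In liver against ventral pancreas 1.24% of named loci were called higher and 2.76% lower, so Dll1 and Notch3 are among 342 loci on the lower side. The median over all named loci was -0.17 in that comparison, and median-ratio rescaling shifted it by 0.19; relative to the median Dll1 stood at -2.43 and Notch3 at -2.15. Against dorsal pancreas the median was -0.16, shifted by 0.17 with median ratios and by -0.20 with equal summed FPKM, and relative to it Dll1 stood at -2.24 and Notch3 at -2.25. All 4 calls ended with a pseudocount of 5 FPKM, where the differences lay between -1.88 and -1.59.

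The 2 pancreatic buds did not differ in Dll1 or Notch3 by the size rule. Ventral minus dorsal pancreas was 0.20 for Dll1 and -0.09 for Notch3, and in that comparison 0.913% of named loci were called higher and 0.768% lower. Liver and pancreas lay on opposite sides of the E8.5 libraries for both genes, without being called. Notch3 was lower in liver by 1.71 than in foregut and by 1.54 than in medial foregut, and higher in the ventral pancreas by 0.61 and 0.78 and in the dorsal pancreas by 0.70 and 0.87. Dll1 was lower in liver by 1.97 than in foregut and by 0.75 than in medial foregut. It was higher in the ventral pancreas by 0.63 and 1.85 and in the dorsal pancreas by 0.43 and 1.65. The Dll1 differences in liver against foregut and in the ventral pancreas against medial foregut lay near the limit and were called with a pseudocount of 0.1 FPKM, at -2.29 and 2.03.

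**Figure D3:**
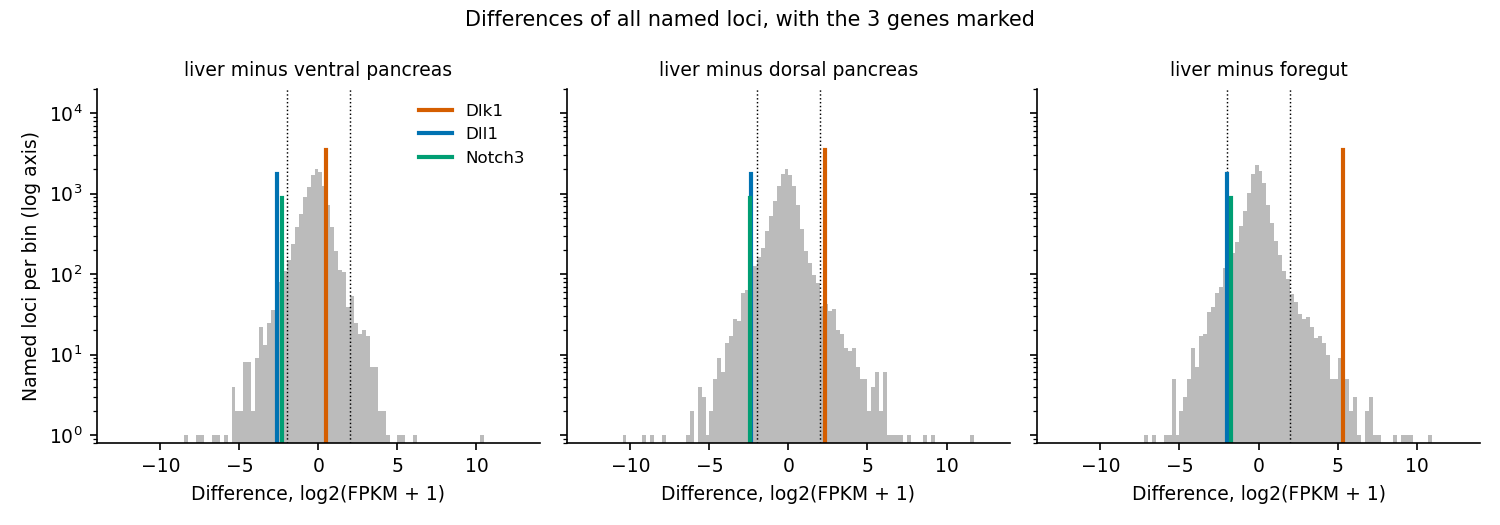
Number of named loci per bin on a log axis against the difference in log2(FPKM + 1), for liver minus ventral pancreas, liver minus dorsal pancreas and liver minus foregut; coloured lines mark Dlk1, Dll1 and Notch3 and dotted lines mark differences of 2 in either direction. Dll1 and Notch3 lie left of the lower dotted line in the pancreatic panels, and Dlk1 lies at 5.35 in the foregut panel.

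Dll1 also differed between the 2 E8.5 libraries, by more than nearly all other loci. Foregut stood at 13.0 FPKM and medial foregut at 4.99, a ratio of 2.60 and a difference of 1.22 that was not called. Only 47 of 12375 named loci, 0.380%, lay as far on the foregut side or further, and 0.0404% were called higher and 0.00808% lower. With equal summed FPKM 15 loci were called higher and 1 lower, in place of 5 and 1. Neural markers were also higher in foregut. The 9 of 9 neural tube and neural crest markers found summed to 172 FPKM in foregut and 75.6 in medial foregut, all 9 were higher in foregut, and none was listed at 0 in either; Pax6 stood at 42.6 FPKM in foregut and 20.0 in medial foregut and Sox3 at 43.3 and 23.2, both at loci longer than the annotated gene. Somite and presomitic markers, of which 4 of 9 listed were found, summed to 32.9 FPKM in foregut and 18.3 in medial foregut. The part of such cells in the Dll1 level was not tested. Notch3 differed by 0.17 and Dlk1 by -0.21 between the same libraries.

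The low levels of Dll1 and Notch3 in liver went with low epithelial and pancreatic markers, but neural and endocrine markers were low there too. Of the 9 neural tube and neural crest markers, 8 were lower in liver than in the ventral pancreas and 9 lower than in the dorsal pancreas. Endocrine cell markers, 6 of 8 found, were all lower in liver than in each pancreatic library. In liver 6 of these neural and 5 of these endocrine markers were under 1 FPKM. The 9 epithelial markers, all found, summed to 381 FPKM in the liver, 1370 in the ventral pancreas and 706 in the dorsal pancreas, against 737 in foregut and 1033 in medial foregut. All 9 were lower in liver than in the ventral pancreas and 8 of 9 lower than in the dorsal pancreas; the keratin genes Krt18 and Krt8 were the most abundant, at 183 and 120 FPKM in the liver, 239 and 225 in the ventral pancreas and 101 and 137 in the dorsal pancreas. The 6 pancreatic progenitor markers summed to 2.60 FPKM in the liver, where Ptf1a was listed at 0 as it was in medial foregut, and to 129 in the ventral and 137 in the dorsal pancreas, against 19.4 in foregut and 7.51 in medial foregut. Markers of mural cells, in which Notch3 is known, did not follow Notch3 as a sum. Acta2 was the largest part of that sum in liver and in both E8.5 libraries. Cardiomyocyte markers were also highest in these libraries, at 471 FPKM in the liver, 4487 in foregut and 7961 in medial foregut. Of the 12 mural markers 11 were higher in liver than in the ventral pancreas and 8 higher than in the dorsal pancreas, with 4 under 1 FPKM in liver. All 12 pericyte and smooth muscle markers were found and summed to 265 FPKM in the liver, 42.0 in the ventral pancreas and 54.5 in the dorsal pancreas, against 782 in foregut and 1296 in medial foregut, and Kcnj8 was listed at 0 in the ventral pancreas and in both E8.5 libraries. Of the most abundant of them, Acta2 stood at 133, 2.78 and 0.923 FPKM in the liver, ventral and dorsal pancreas, against 635 in foregut and 1042 in medial foregut, and Des at 6.86, 2.40 and 20.95 FPKM, against 41.9 in foregut and 73.6 in medial foregut. Endothelial markers, 8 of 10 found, summed to 75.6 FPKM in the liver, 26.6 in the ventral pancreas and 52.9 in the dorsal pancreas, against 92.2 in foregut and 122 in medial foregut. Over the 5 libraries the epithelial sum did not run in the order of Dll1, which stood at 17.8 FPKM in the dorsal pancreas and 4.99 in medial foregut. The part of any of these cell types in the Dll1 and Notch3 differences was not tested.

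Genes for bHLH and endocrine factors known to act beside Delta ligands were found for 5 of 12 listed, and they were listed at or near 0 in liver; Ptf1a, Neurod1 and Insm1 are also in the marker lists used here. Ptf1a and Neurog3 are at loci longer than the annotated gene. Ptf1a, a pancreatic factor known to activate Dll1, had 7.55 FPKM in the ventral and 8.32 in the dorsal pancreas, with liver listed at 0. Neurog3, the trigger of endocrine differentiation, had 0.00408 FPKM in the liver, 2.74 in the ventral pancreas and 7.86 in the dorsal pancreas. Neurod1 had 6.74 FPKM in the ventral and 19.3 in the dorsal pancreas, with liver listed at 0. Insm1 stood at 0.0329, 7.99 and 18.9 FPKM in the liver, ventral and dorsal pancreas, and Pax4 had 2.22 FPKM in the ventral and 3.799 in the dorsal pancreas, with liver listed at 0. All 5 were lower in ventral than in the dorsal pancreas, where Dll1 was at 20.7 and 17.8 FPKM, and in foregut, where Dll1 was at 13.0 FPKM, the highest of them was Insm1 at 0.766. In liver 3 of 5 were called lower than in the ventral and 4 of 5 lower than in the dorsal pancreas, beside 2.76% and 3.35% of named loci, and with a pseudocount of 5 FPKM 0 and 2 of 5.

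Because Dll1 and Notch3 were low and high in the same libraries, the sequence before their starts is shown for reference. Both stretches have 244 bases, from 250 to 7 bases before a RefSeq start (GRCm38.p6) and outside the annotated gene, on the minus strand, at chr17:15376939-15377182 for the outer of the Dll1 starts and chr17:32166897-32167140 for Notch3. Both were searched on both strands for TGGGAA, the core of the site bound by Rbpj, and for CANNTG, the E-box bound by bHLH proteins, which reads the same on both strands; capitals mark E-boxes, and the 2 motifs did not overlap.
Dll1: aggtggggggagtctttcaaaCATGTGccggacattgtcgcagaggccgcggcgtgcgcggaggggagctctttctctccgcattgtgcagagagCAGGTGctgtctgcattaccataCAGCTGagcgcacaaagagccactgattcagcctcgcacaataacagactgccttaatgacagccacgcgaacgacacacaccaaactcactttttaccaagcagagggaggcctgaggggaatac
Notch3: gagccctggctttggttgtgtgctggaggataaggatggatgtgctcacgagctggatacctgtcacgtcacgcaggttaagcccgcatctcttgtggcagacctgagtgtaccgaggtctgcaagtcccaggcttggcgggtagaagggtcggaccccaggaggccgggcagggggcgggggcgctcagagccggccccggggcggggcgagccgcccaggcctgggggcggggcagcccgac
The Dll1 stretch held 3 E-boxes, which were CATGTG with its first base 229 bases before the start, CAGGTG at 155 bases and CAGCTG at 132 bases, and the Notch3 stretch held none. TGGGAA was in neither. Of 32807 RefSeq promoter stretches of the same length and position, 65.6% held an E-box and 21.1% held TGGGAA. The GC content was 55.7% for Dll1 and 68.9% for Notch3, beside a median of 52.0% for all stretches. A match is a description of letters and not a site in use.

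Among the Notch receptors Notch3 was the one that differed most between liver and pancreas. Notch1 stood at 10.7 FPKM in the liver, 29.5 in the ventral pancreas and 18.0 in the dorsal pancreas, against 13.1 in foregut and 8.69 in medial foregut. Notch2 stood at 11.5, 18.5 and 16.9 FPKM in the liver, ventral and dorsal pancreas, against 11.3 in foregut and 8.09 in medial foregut. Both were lower in liver than in the pancreatic buds but by at most 1.38, and neither was called. Notch4 lies in a joined locus and was not measured. Notch3 made up 19.8% of the summed FPKM of the 3 measured receptors in liver, 39.5% in the ventral pancreas and 48.9% in the dorsal pancreas, against 45.2% in foregut and 51.6% in medial foregut. The receptor sum was 27.6 FPKM in the liver, 79.2 in the ventral pancreas and 68.2 in the dorsal pancreas, against 44.6 in foregut and 34.7 in medial foregut.

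All 5 Delta and Jagged genes were lower in liver than in either pancreatic library. Dll1 was the one called lower against both, beside 2.76% of named loci against ventral and 3.35% against dorsal pancreas. Dll4 and Jag2 stayed under the 5 FPKM that a call needs in all 3 E10.5 libraries. Dll3 did so in liver and ventral pancreas, so none of these could be called against both. Dll3, a Delta gene whose protein acts inside the cell, stood at 0.0452 FPKM in the liver, 2.51 in the ventral pancreas and 9.77 in the dorsal pancreas, against 0.546 in foregut and 0.460 in medial foregut. It was called lower in liver than in the dorsal pancreas. Dll4, a ligand of arterial endothelium, stood at 1.05, 2.22 and 4.23 FPKM in the liver, ventral and dorsal pancreas, against 1.44 in foregut and 3.15 in medial foregut. Jag1 and Jag2 were both highest at E8.5. Jag1 stood at 1.73 FPKM in the liver, 6.83 in the ventral pancreas and 6.70 in the dorsal pancreas, against 17.0 in foregut and 25.5 in medial foregut. Jag2 stood at 1.95, 3.89 and 4.28 FPKM in the liver, ventral and dorsal pancreas, against 5.81 in foregut and 7.17 in medial foregut. Summed over these 5 genes, liver had 7.34 FPKM, ventral pancreas 36.1 and dorsal pancreas 42.8, of which Dll3 made up 22.8%, against 37.8 in foregut and 41.3 in medial foregut. Dll1 made up 35.0% of this sum in liver, 57.2% in the ventral pancreas and 41.7% in the dorsal pancreas, against 34.4% in foregut and 12.1% in medial foregut, where Jag1 made up 61.8%. The other atypical ligand found, Dner, stayed between 0.430 and 0.705 FPKM in all 5 libraries.

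**Figure D4:**
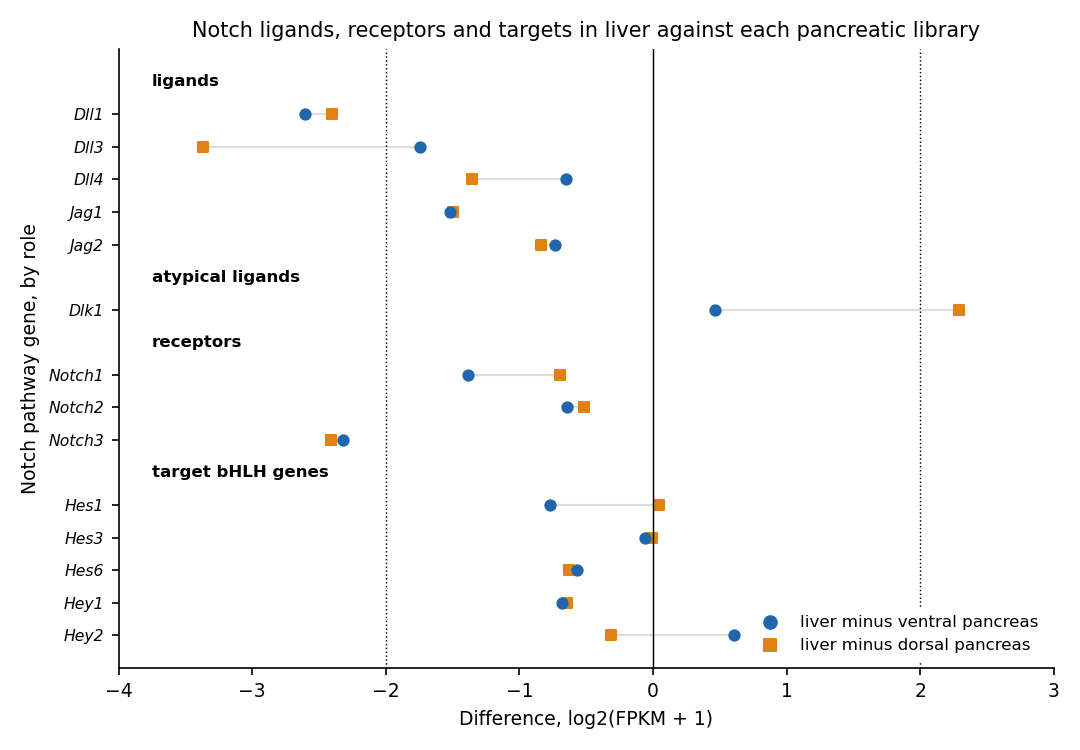
Difference in log2(FPKM + 1) for liver minus ventral pancreas (circles) and liver minus dorsal pancreas (squares) for the measured Notch ligands, receptors and target genes, grouped by role, with dotted lines at differences of 2. Dll1 and Notch3 are the genes left of the lower line for both libraries, and Dlk1 is the gene right of the upper line, against dorsal pancreas.

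Of 58 listed Notch pathway genes 44 were found and 43 had a mean of at least 1 FPKM; the list includes Dlk1, Dll1 and Notch3. In liver against ventral pancreas 2 of 43 were called lower, Dll1 and Notch3, and 0 higher, where 2.76% of named loci were called lower and 1.24% higher, and 37 of 43 lay below 0. The list median was -0.59, or -0.58 without the 3 genes, beside -0.17 over all named loci. In liver against dorsal pancreas 4 of 43 were called lower, Dll1, Dll3, Notch3 and Tle4, and Dlk1 was called higher, beside 3.35% of named loci lower and 2.12% higher. There 36 lay below 0, and the median was -0.64 beside -0.16. The share of all named loci below 0 was not counted in either comparison, and their median was below 0 in both. In ventral against dorsal pancreas 0 of 43 were called, beside 0.913% of named loci higher and 0.768% lower, and the median was -0.09 beside 0.01. With a pseudocount of 5 FPKM 0 were called lower in liver against either bud, and with equal summed FPKM 4 were lower than in the ventral and 8 lower than in the dorsal pancreas.

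In the other roles Tle4 was the only gene called between liver and a pancreatic library. Of the receptor-modifying glycosyltransferases, Pofut1 stood at 15.5 FPKM in the liver, 16.2 in the ventral pancreas and 16.2 in the dorsal pancreas, against 14.1 in foregut and 13.4 in medial foregut. Lfng, of the Fringe family, was high at E8.5 and stood at 1.37, 2.33 and 3.60 FPKM in the liver, ventral and dorsal pancreas, against 21.7 in foregut and 9.86 in medial foregut. Mib1, a ubiquitin ligase needed for ligand endocytosis, stayed between 16.1 and 19.6 FPKM. Neurl1a, of the same role, stood at 1.10 FPKM in the liver, 4.42 in the ventral pancreas and 6.39 in the dorsal pancreas. The receptor proteases were nearly level, with a median of -0.05 in liver against ventral and 0.10 against dorsal pancreas over 6 genes: the sheddase Adam10 stayed between 38.5 and 53.8 FPKM and the gamma-secretase subunit Ncstn, at a locus longer than the annotated gene, between 34.0 and 53.1. Rbpj, whose locus covers 29.5% of the annotated gene, stood at 16.5 FPKM in the liver, 26.4 in the ventral pancreas and 26.0 in the dorsal pancreas, against 27.7 in foregut and 23.5 in medial foregut. Its co-activator Maml3 stood at 3.32, 5.80 and 6.75 FPKM in the liver, ventral and dorsal pancreas.

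Among the corepressors Tle3 stood at 14.1 FPKM in the liver, 29.8 in the ventral pancreas and 50.4 in the dorsal pancreas. Tle4, whose locus covers 14.1% of the annotated gene, stood at 9.13 FPKM in the liver, 10.9 in the ventral pancreas and 42.8 in the dorsal pancreas. Of the inhibitors and turnover genes all 8 measured were below 0 in liver against each bud and 0 were called. Their median was -0.67 against ventral and -0.54 against dorsal pancreas, beside -0.17 and -0.16 over all named loci. The all-loci median was thus below 0 as well, and the share of all named loci below 0 was not counted. Dtx3 stood at 15.9 FPKM in the liver, 39.2 in the ventral pancreas and 50.9 in the dorsal pancreas, and the ubiquitin ligase gene Itch at 17.1, 20.5 and 20.3.

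On the log2(FPKM + 1) scale the target genes differed less between liver and pancreas than Dll1 and Notch3, and none was called there. Hes3 and Hey2 stayed under 5 FPKM in all 3 E10.5 libraries, so they could not be called, and this scale shrinks their differences. Of all named loci 1.24% were called higher and 2.76% lower in liver against ventral pancreas. Against dorsal pancreas these were 2.12% and 3.35%. Hes1, a main Notch target in pancreatic progenitors, stood at 17.1 FPKM in the liver, 30.0 in the ventral pancreas and 16.6 in the dorsal pancreas, against 15.5 in foregut and 20.0 in medial foregut. Liver and dorsal pancreas thus differed by 0.04 in Hes1 where Dll1 differed by -2.40 and Notch3 by -2.41. Hey1 stood at 4.52, 7.87 and 7.62 FPKM in the liver, ventral and dorsal pancreas, against 10.7 in foregut and 13.6 in medial foregut. Hey2, known from arterial endothelium and heart, stood at 0.664, 0.0943 and 1.07 FPKM, against 4.39 in foregut and 8.46 in medial foregut. Hes6, which is known to counter Hes1, stood at 13.6, 20.6 and 21.5 FPKM in the liver, ventral and dorsal pancreas, against 11.3 in foregut and 13.0 in medial foregut. Hes3, at a locus longer than the annotated gene, was listed at 0 in liver, was at 0.0447 FPKM in the ventral and 0.00313 in the dorsal pancreas, and stood at 4.19 in foregut and 3.62 in medial foregut. Hes5, Hes7 and Heyl were not measured.

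The genes most like Dll1 over the 5 libraries were Tox3, Srgap3, Arnt2, Nudt11, Kif1a and Sbk1, at root mean square differences of 0.11, 0.12, 0.24, 0.30, 0.32 and 0.32. Tox3, a gene for an HMG-box protein, stood at 1.85 FPKM in the liver, 15.5 in the ventral pancreas and 14.9 in the dorsal pancreas, against 10.1 in foregut and 4.62 in medial foregut. Like Dll1 it was higher in foregut than in medial foregut. Among the genes most like Notch3 were Rnf122, Igsf9, Clip3, Fsd1 and Nudt11, at differences of 0.07, 0.09, 0.09, 0.11 and 0.13. Rnf122, whose locus covers 4.38% of the annotated gene, stood at 3.78 FPKM in the liver, 23.9 in the ventral pancreas and 24.3 in the dorsal pancreas, against 15.3 in foregut and 14.8 in medial foregut. Igsf9 stood at 9.67, 47.9 and 48.9 FPKM in the liver, ventral and dorsal pancreas, against 35.6 in foregut and 27.7 in medial foregut. Nudt11, which was near both genes, has a closely similar relative, so its reads may be shared. Notch3 was itself 23rd in likeness to Dll1, at 0.39, and Dll1 156th in likeness to Notch3, while Dlk1 lay at 2.52 from Dll1 and 2.62 from Notch3.

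**Figure D5:**
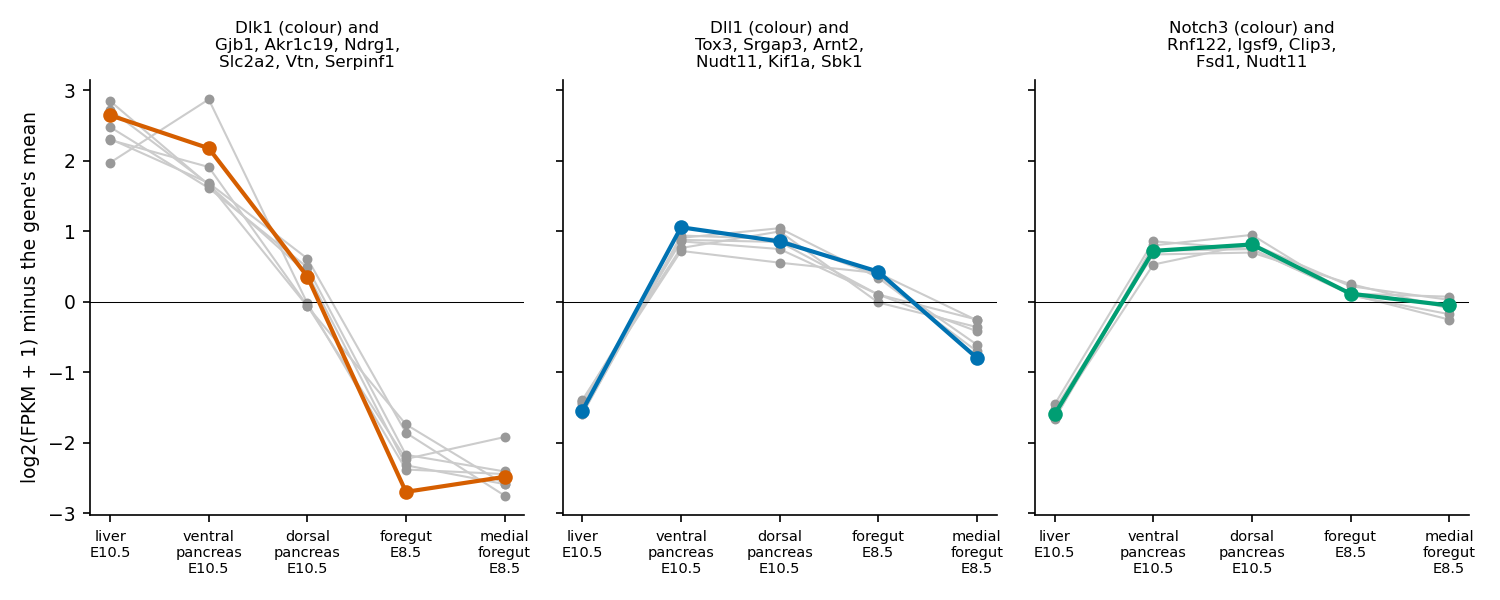
Log2(FPKM + 1) minus each gene's own mean over the 5 libraries, for Dlk1, Dll1 and Notch3 in colour and the genes named as nearest to each in grey; lines join the values of 1 gene and imply no order of the tissues. Liver is the high end of the Dlk1 panel and the low end of the Dll1 and Notch3 panels.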

How the data were processed

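Polyadenylated RNA of each tissue gave 1 paired-end library, per the labels' protocols, which describe random priming and no step that keeps strand. The authors deposited FPKM values per locus for all libraries in 1 table, per the file headers. TopHat 1.33, Cufflinks 1.3.0 and the build mm9 are named in the submitters' processing notes; how libraries were scaled to each other, and whether starts count from 0 or 1, the sources used here do not state. Columns were tied to tissues by the column name that each sample's label carries.

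Of 14053 loci 1678 have no name and 12375 were analysed. Python 3.11.15, pandas 2.3.3 and NumPy 2.4.6 computed differences of log2(FPKM + 1) for 10 pairs of libraries; this scale understates the change of low genes. No test was run. Depth is unknown, so no interval is given. Strand and span were compared by name with GENCODE M21 (GRCm38), which match for all 3 genes. Gene lists were matched by exact name. Beside the 3 genes the text names the nearest profiles, all measured ligands, receptors and target genes of the pathway, and in other groups the members called between E10.5 libraries and the most abundant 2. Some genes that this rule takes are not reported here. Members and lists were chosen with earlier results of these data known. The alternatives were pseudocounts of 0.1 and 5 FPKM, equal summed FPKM, median ratios over loci above 0 in every library, no filter on low values, and Pearson correlation for likeness.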

Additional observations from a re-analysis of the deposited data

Results flagged for a closer look

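Some genes of the Notch pathway lay on opposite sides of the E8.5 libraries in different E10.5 tissues, with a gap between those tissues of at least 2 on the log2(FPKM + 1) scale. The difference was not tested, since each tissue is 1 library, and all values share the same 2 E8.5 libraries. Of these values, those of Dll3 in dorsal pancreas were called. Dll1 in liver stood at -1.97 from foregut and -0.75 from medial foregut, in ventral pancreas at 0.63 and 1.85, and in dorsal pancreas at 0.43 and 1.65. Notch3 in liver stood at -1.71 and -1.54, in ventral pancreas at 0.61 and 0.78, and in dorsal pancreas at 0.70 and 0.87. Dll3 in liver stood at -0.56 from foregut and -0.48 from medial foregut, and in dorsal pancreas at 2.80 and 2.88. Tle4 in liver stood at -0.81 and -0.63, and in dorsal pancreas at 1.304 and 1.482.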

How the results depend on the processing

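Over 30 differences of the 3 genes and 5 alternatives, 142 of 150 values kept both direction and side of the size rule, 4 fell short of it and 4 newly passed it; none changed direction. With a pseudocount of 5 FPKM Dll1 in liver fell short at -1.76 against ventral and -1.59 against dorsal pancreas, and Notch3 at -1.79 and -1.88, since a larger pseudocount shrinks low genes by construction. Dll1 in liver against foregut passed the rule at -2.29 with a pseudocount of 0.1 FPKM and at -2.27 with equal summed FPKM, and Dll1 in ventral pancreas against medial foregut at 2.03 and 2.04. All 7 calls of Dlk1 were kept under all 5 alternatives. Leaving out the filter changes no difference and only loosens the rule, so its 30 values equal the main ones and it cannot end a call.

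With Pearson correlation in place of the root mean square difference, 0 of the 6 genes nearest to Dlk1, 1 of those nearest to Dll1 and 0 of those nearest to Notch3 were shared, so these names depend on the measure. A pseudocount of 5 FPKM lowered the background as well. The loci lower in liver than in ventral pancreas numbered 85 in place of 342, those lower than in dorsal pancreas 103 in place of 414, and those higher than in dorsal pancreas 130 in place of 262. Those higher than in foregut numbered 153 for liver, 83 for the ventral and 62 for the dorsal pancreas, in place of 308, 283 and 212, and those higher than in medial foregut 157, 90 and 68 in place of 311, 297 and 220. Those higher and lower in ventral than in dorsal pancreas numbered 34 and 26 in place of 113 and 95, and 0 in place of 5 were higher in foregut than in medial foregut. With equal summed FPKM, which puts the values on a higher scale against the same pseudocount, 575 and 744 loci were lower in liver than in ventral and dorsal pancreas, 513 and 413 were higher in ventral and dorsal pancreas than in medial foregut, and of the imprinted genes 1 was higher and 5 lower in liver than in dorsal pancreas in place of 2 and 3. Median-ratio rescaling kept every call of the 3 genes, and leaving out the filter, which cannot end a call, added none.

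No paired analysis was possible because each tissue has 1 library and the labels give no replicate numbers. There is no replicate to leave out, and depth in reads, which limits low values such as Dll1 in liver most, is unknown.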
